A study of Homo sapiens with 9 samples.

Results

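HaCaT cells are an immortalised line of human keratinocytes, the cells that build the epidermis. In a series about polystyrene fragments (fPS) and skin inflammation, they were kept for 24 h in DMEM with 100 µg/ml fPS (fPS 100) or in DMEM alone (control), with fetal bovine serum in the growth medium of both. The comparison described here takes 6 of the 9 samples, 3 of fPS 100 and 3 of control, chosen by the treatment in their labels. The remaining 3, with 25 µg/ml fPS for the same time (fPS 25), shared the same control and entered the estimate of spread. Whether replicates came from separate cultures is not stated, and a p-value here reflects just the variation among these libraries, which may be technical. HaCaT is a single line, and the labels give no particle size and no control with another particle. The response was described over 14654 genes with enough counts to test, out of 52402 symbols in the authors' count table, after 4 ribosomal RNA genes had been left out.

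Keratinocytes at the base of the epidermis divide, hold on to the basement membrane through integrins and laminins, and take growth signals through the EGF receptor family, whose ligands they make themselves. When they leave the cycle, the enzymes that supply nucleotides, copy DNA and repair it at the fork usually go down together. Lysosomes, the endosomal system and stress-responsive metabolism are regulated apart from the cycle and vary with the cargo and metals a cell takes in.

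Total counts were 25021651, 25327076 and 29274480 in fPS 100 replicates 1 to 3, against 21955992, 25372399 and 23035888 in control. All 15 keratinocyte markers were tested, with a summed level of 8916 to 12634 CPM in fPS 100 and 8367 to 8850.3 CPM in control, where CPM is a gene's read count scaled by the TMM-normalised library size, on the linear scale. Markers of other cell types were low. Of 7 melanocyte markers 2 were tested (summed 3.28 to 4.55 CPM in fPS 100, 3.59 to 4.11 in control), of 10 fibroblast markers 1 (11.0 to 17.6 and 10.4 to 12.6 CPM, with LUM and THY1 at 0), of 9 endothelial markers 2 (2.52 to 8.70 and 1.41 to 2.31 CPM, with KDR and TEK at 0) and of 11 leukocyte markers 3 (19.4 to 21.9 and 10.8 to 12.01 CPM). Of these markers CD68, which lysosomes of many cells carry, and the endothelial cadherin CDH5 rose, and the leukocyte integrin ITGAM fell. CDH5 had a log2 fold change of 3.22, and 1.74 without fPS 100 replicate 3 (adjusted p = 0.0681 without control replicate 2 and 0.054 without control replicate 3). ITGAM passed narrowly (adjusted p = 0.0469; adjusted p = 0.0885 without control replicate 1, 0.107 without control replicate 2, 0.083 without control replicate 3, 0.126 without fPS 100 replicate 1 and 0.134 without fPS 100 replicate 2). Replicate 3 of fPS 100 stood apart on the second principal component, with 20.8% of the variance, at 37.1, with replicates 1 and 2 at −18.3 and −9.51, against −0.08 to 29.3 in control. Mitochondrially encoded transcripts took 2.09% of its counts, against 5.34% and 4.62% in the other fPS 100 libraries and 2.32% to 3.53% in control. Results that rest on this library are given with and without it. In bulk RNA a smaller number of cells of one kind and less RNA per cell cannot be told apart.

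Most genes that moved did so by little. edgeR's quasi-likelihood test with Benjamini-Hochberg adjustment called 4386 of 14654 genes at an adjusted p under 0.05, 29.9% of those tested. Of these 2245 rose in fPS 100 (15.3%) and 2141 fell (14.6%). The median called rise was 0.64 and the median called fall −0.66 on the log2 scale, and the median over all genes tested was 0.01. At least 2-fold changes numbered 503 rises and 623 falls, at least 4-fold changes 63 and 112, and at least 8-fold changes 17 and 30. For 6048 genes, 41.3% of those tested, every fPS 100 library lay on the same side of every control library. Genes called higher made up 15.9% of CPM in fPS 100 and 10.4% in control, and genes called lower 10.8% and 16.6%.

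Replicate 3 changed how many genes passed more than which way they went. Without it, 2814 genes were called higher (18.9% of 14927 tested) and 2829 lower (19.0%). Of the 4386 genes called with all libraries, 4046 were also called without it in the same direction, 92.2%, and none changed sign, while 1548 genes were called only without it. Genes called with it could hardly change sign, and those it held back, such as MMP1 below, are not among the 4386. Rare genes passed less often: under 1 CPM 114 of 1863 rose and 180 fell, with a median standard error of 0.41 log2, against 1276 and 1211 of 7228 between 10 and 100 CPM, with a median standard error of 0.12. Of the 99 most abundant genes 7 rose and 6 fell.

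**Figure D1:**
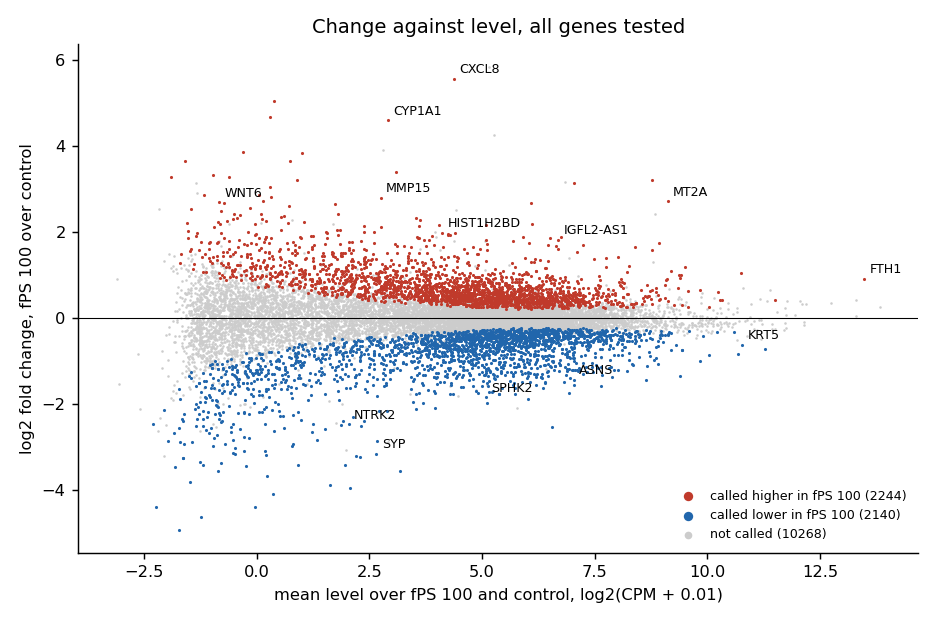
Log2 fold change of fPS 100 over control (vertical axis) against mean level as log2(CPM + 0.01) (horizontal axis), 1 point per gene tested, coloured by call at an adjusted p under 0.05. Rises and falls appear from the rarest genes up to abundant ones, and 2 genes with no count in a whole group (LOC100507412 and HIST1H2AD) have no fold and are not drawn.

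Several of the rises with the smallest adjusted p were tight over libraries, which picking by p itself favours. IGFL2-AS1, an antisense RNA at the IGFL2 locus, had 168, 165 and 151 CPM in fPS 100, against 44.2, 48.3 and 43.8 CPM in control. Every fPS 100 library lay above every control library (log2 fold change 1.83 ± 0.09, adjusted p = 5.59e-06). Whether counting used strand is not stated, so its reads and those of genes on the other strand cannot be told apart. CSRP1, a LIM protein of actin filaments, had 307, 319 and 315 CPM in fPS 100, against 131, 121 and 103 CPM in control. The groups were apart by more than the spread within either (log2 fold change 1.41 ± 0.10, adjusted p = 9.03e-06). RHOB, an endosomal small GTPase, did the same, at a log2 fold change of 1.29 ± 0.08, adjusted p = 6.41e-06. DEF8, a gene of lysosome positioning, had 38.97, 44.4 and 47.4 CPM in fPS 100, against 16.6, 14.8 and 15.3 CPM in control, again without overlap (log2 fold change 1.49 ± 0.10, adjusted p = 9.03e-06). ALDH1A3, which makes retinoic acid, was at 196, 167 and 148 CPM in fPS 100, against 48.2, 45.03 and 44.8 CPM in control. All its fPS 100 libraries lay far above control (log2 fold change 1.89 ± 0.11, adjusted p = 5.88e-06).

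Large rises at a mean of at least 5 CPM were picked from called genes without overlap, so that separation is no further result. They included MMP15, a membrane-bound matrix metalloproteinase, with 10.9, 10.8 and 13.5 CPM in fPS 100, against 1.96, 1.62 and 1.47 CPM in control (log2 fold change 2.81 ± 0.17, adjusted p = 6.41e-06). TMPRSS13, a serine protease of the cell surface, had 7.16, 6.85 and 3.13 CPM in fPS 100, against 1.0, 0.727 and 0.966 CPM in control. Replicate 3 was lower than replicates 1 and 2 yet above control (log2 fold change 2.67 ± 0.32, adjusted p = 0.000138). PIK3IP1, an inhibitor of PI3 kinase, had 21.5, 22.8 and 13.6 CPM in fPS 100, against 3.1, 3.55 and 4.74 CPM in control, with the same placing of replicate 3 (log2 fold change 2.34 ± 0.23, adjusted p = 4e-05). PTGES, which makes prostaglandin E2, had 99.5, 96.99 and 143 CPM in fPS 100, against 31.1, 23.5 and 20.2 CPM in control, all fPS 100 values being above 90 and all control values below 32 (log2 fold change 2.18 ± 0.18, adjusted p = 1.59e-05). LOC100507412, a locus without a gene name, had 2.77, 3.43 and 3.52 CPM in fPS 100 and 0 counts in each control and fPS 25 library, as the ribosomal RNA genes did, so no fold is given.

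The largest falls at that level were picked under the same condition. Among them SYP, synaptophysin of secretory vesicles, had 1.28, 1.61 and 0.911 CPM in fPS 100, against 7.92, 15.95 and 9.95 CPM in control. The lowest control value was several times the highest in fPS 100 (log2 fold change −3.15 ± 0.29, adjusted p = 2.82e-05). NTRK2, the receptor of brain-derived neurotrophic factor, had 0.911, 0.761 and 2.06 CPM in fPS 100, against 5.78, 6.7 and 8.36 CPM in control, with no overlap (log2 fold change −2.47 ± 0.31, adjusted p = 0.000183). DDN, dendrin, had 1.49, 1.57 and 1.94 CPM in fPS 100, against 9.2, 7.71 and 9.36 CPM in control (log2 fold change −2.39 ± 0.16, adjusted p = 9.03e-06). DISP2, of the dispatched family, had 2.32, 2.58 and 3.17 CPM in fPS 100, against 10.4, 13.3 and 12.5 CPM in control (log2 fold change −2.16 ± 0.17, adjusted p = 1.06e-05). ECM2, a matrix protein, had 2.36, 1.4 and 0.831 CPM in fPS 100, against 9.51, 13.2 and 10.8 CPM in control, and its fPS 100 values were all below the lowest control value (log2 fold change −2.87 ± 0.28, adjusted p = 4.08e-05). RTEL1-TNFRSF6B is a readthrough transcript that shares exons with its neighbours, so its counts (1.08, 2.2 and 1.15 CPM in fPS 100, against 9.06, 5.49 and 10.8 CPM in control; log2 fold change −2.52 ± 0.31, adjusted p = 0.000177) depend on how such reads were divided. NWD1 had a log2 fold change of −2.38 ± 0.26, adjusted p = 7.59e-05.

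By difference in mean CPM, the rises began with both ferritin chains, which store iron. FTH1, the heavy chain of ferritin, had 13453, 13422 and 17914 CPM in fPS 100, against 7791, 9282 and 6554 CPM in control. Replicate 3 was the highest and control the lower group throughout (log2 fold change 0.92 ± 0.16, adjusted p = 0.00166). FTL, the light chain, had 2311, 2285 and 2368 CPM in fPS 100, against 1119, 1273 and 939 CPM in control (log2 fold change 1.06 ± 0.13, adjusted p = 0.000146). The falls by the same measure included TUBA1B, an alpha tubulin, with 1072, 1203 and 1304 CPM in fPS 100, against 2197, 2217 and 1917 CPM in control, without overlap (log2 fold change −0.82 ± 0.11, adjusted p = 0.000288). ACLY, which makes cytosolic acetyl-CoA, had 808, 668 and 752 CPM in fPS 100, against 1236, 1348 and 1452 CPM in control (log2 fold change −0.86 ± 0.12, adjusted p = 0.000296). FDPS, which makes farnesyl pyrophosphate, had 398, 488 and 673 CPM in fPS 100, against 785, 1061 and 774 CPM in control, with replicate 3 closest to control (log2 fold change −0.75 ± 0.18, adjusted p = 0.00946). At the other extreme, 482 genes (3.29%) had a 95% interval of the log2 fold change within 0.25 of 0. The most abundant of these were EEF1G, a translation elongation factor, at 1960.3, 2064 and 1929 CPM in fPS 100, against 2009, 1971 and 1830.2 CPM in control. RPL19, TKT, RPS4X and INSIG1 were also among them, with log2 fold changes of 0.03, 0.00, 0.01 and 0.05. For 10607 genes (72.4%) the interval lay within a 2-fold change either way, and for 150 and 220 it lay wholly beyond 2-fold higher or lower.

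**Figure D2:**
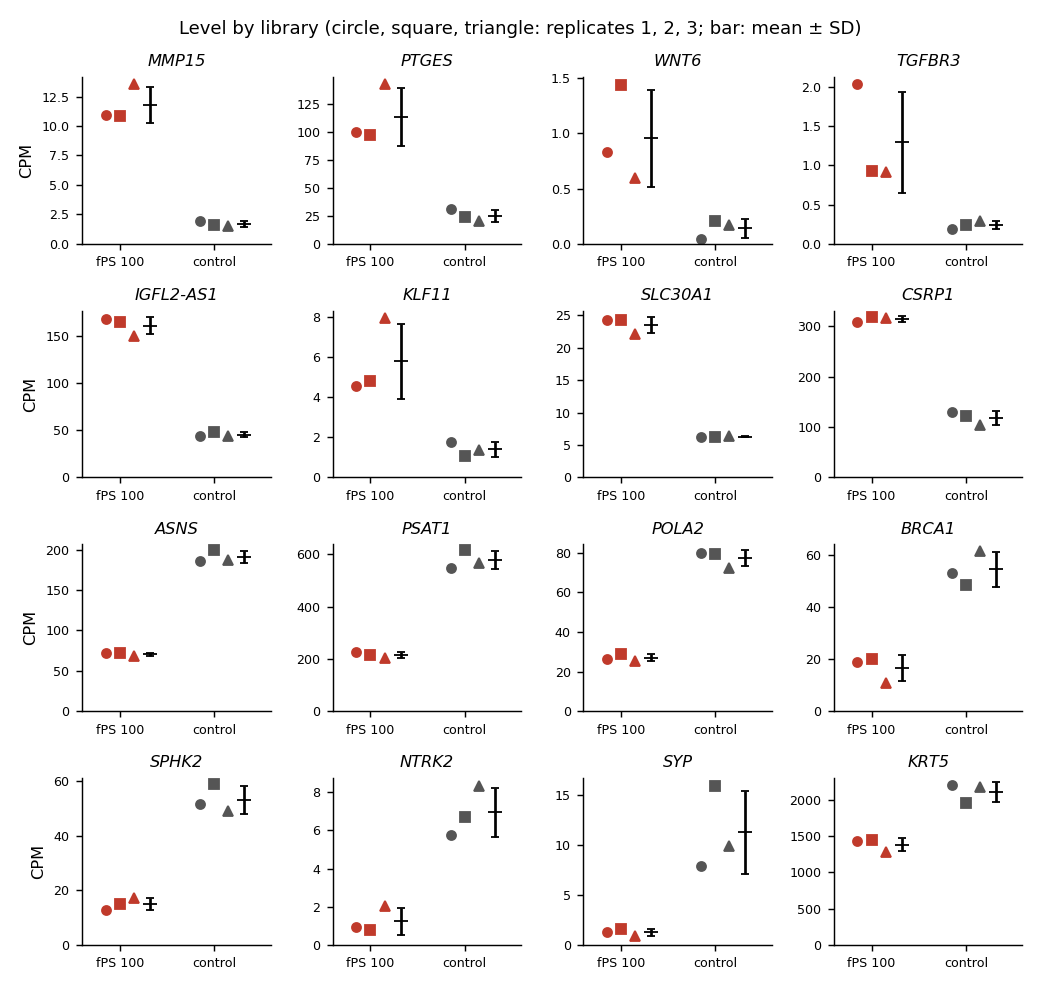
CPM (vertical axes, linear from 0) of 16 genes in the 3 fPS 100 libraries (left, red) and the 3 control libraries (right, grey), with mean and SD as a bar, n = 3. The groups do not overlap in any of the panels, which was a condition of choice for some of these genes. MMP15 lies at 10.8 to 13.5 CPM in fPS 100 and at 1.47 to 1.96 CPM in control, and SYP at 0.911 to 1.61 CPM in fPS 100 and 7.92 to 16.0 CPM in control.

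Genes of DNA repair fell broadly. Of 29 genes of homologous recombination and the Fanconi anaemia pathway, which mend breaks and crosslinks at replication forks, 24 fell and 0 rose, with a median of −0.95 log2, against 14.6% called lower and a median of 0.01 over all genes. BRCA1, which acts in the repair of breaks, had 18.7, 20.2 and 10.9 CPM in fPS 100, against 53.1, 48.5 and 61.4 CPM in control, lowest in replicate 3 (log2 fold change −1.71 ± 0.19, adjusted p = 9.77e-05). FANCD2, BLM and XRCC3 had log2 fold changes of −1.6, −1.55 and −1.32. Of 33 genes of end joining and excision repair 17 fell and 2 rose (median −0.32). The falls included OGG1, the glycosylase for oxidised guanine (log2 fold change −0.96 ± 0.12, adjusted p = 0.000179), NEIL3 (log2 fold change −1.46) and PARP2 (log2 fold change −1.13). XRCC6, APEX1, NEIL2, PARP1 and UNG also fell but lost their call without 1 or more single libraries. The rises were XPA, of nucleotide excision repair (log2 fold change 0.82 ± 0.11, adjusted p = 0.000279), and NEIL1, another glycosylase (log2 fold change 0.99 ± 0.19, adjusted p = 0.00295). Of 23 cohesin and condensin genes, which hold and fold chromosomes, 16 fell and 0 rose (median −0.85). CDCA5, sororin, had 53.01, 61.8 and 53.97 CPM in fPS 100, against 180.4, 219 and 160.2 CPM in control, with no overlap (log2 fold change −1.73 ± 0.12, adjusted p = 9.03e-06). Without replicate 3, with 19.0% of all genes called lower, the falls numbered 23, 20 and 16 in these 3 lists.

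Genes that supply DNA and RNA precursors fell too. Of 22 genes of purine and pyrimidine synthesis 12 fell and 0 rose (median −0.45), and of 18 of serine, folate and one-carbon metabolism 10 fell and 0 rose (median −0.74). These and the list counts that follow are set against 14.6% of all genes called lower and 15.3% called higher. RRM1, the large subunit of ribonucleotide reductase, had 124, 150.2 and 118 CPM in fPS 100, against 327, 361 and 330.1 CPM in control, the control values being all above 320 (log2 fold change −1.38 ± 0.10, adjusted p = 1.06e-05). PSAT1, a serine synthesis enzyme, had 226, 215 and 204 CPM in fPS 100, against 548, 617 and 569 CPM in control (log2 fold change −1.43 ± 0.09, adjusted p = 6.41e-06). Its pathway neighbours PHGDH and PSPH had log2 fold changes of −1.05 and −1.11. The mitochondrial folate enzymes SHMT2 and MTHFD2 were at a log2 fold change of −1.21 and −0.86, and thymidylate synthase TYMS, which is in both lists, at a log2 fold change of −1.08. The 10 members of the nucleotide list that did not pass included PPAT, which opens purine synthesis (log2 fold change −0.11 ± 0.10, adjusted p = 0.458), and UMPS, which completes UMP (log2 fold change −0.10 ± 0.12, adjusted p = 0.554; −0.24, adjusted p = 0.0463, without replicate 3). Without replicate 3 the nucleotide list had 18 falls and 1 rise, and the one-carbon list 12 and 0, with 19.0% of all genes called lower. Of 23 genes of aminoacyl-tRNA synthetases and their complex, which charge tRNA, 13 fell and AIMP1, a scaffold of the complex, rose (median −0.41), AIMP1 narrowly (adjusted p = 0.0478; adjusted p = 0.0758 without control replicate 1, 0.0749 without control replicate 2, 0.131 without control replicate 3, 0.095 without fPS 100 replicate 1 and 0.113 without fPS 100 replicate 2). LARS, for leucine, had 86.7, 80.1 and 90.4 CPM in fPS 100, against 149, 160.0 and 168 CPM in control (log2 fold change −0.89 ± 0.08, adjusted p = 3.14e-05) and IARS at a log2 fold change of −0.98. WARS, for tryptophan, had a log2 fold change of −0.03 ± 0.11, adjusted p = 0.866 and did not pass. Of 28 nuclear pore genes 14 fell and AAAS rose (median −0.29), with NUP107, of the pore's outer ring, at a log2 fold change of −0.75 ± 0.09, adjusted p = 0.000113. Several nuclear pore falls, among them NUP50, NUP54, NUP93, NUP188, NUP214 and NDC1, lost their call without 1 or more single libraries. Of 45 chromatin modifiers 9 fell and 5 rose. The maintenance methylase DNMT1 had 88.1, 89.6 and 89.8 CPM in fPS 100, against 178, 160.4 and 169.9 CPM in control (log2 fold change −0.92 ± 0.09, adjusted p = 4.09e-05). The histone methylase SUV39H1 had a log2 fold change of −1.21, while DNMT3A, a de novo methylase, had a log2 fold change of 0.82 ± 0.17, adjusted p = 0.00419.

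The promoters of 4 genes with small adjusted p are shown because the shares of some short motifs differed between genes that fell and genes that rose. All 4 hold at least 1 of the motifs in capitals below, so they are examples and do not show how common these are. CHAF1A, a histone chaperone of the replication fork, had 35.1, 39.7 and 31.7 CPM in fPS 100, against 101, 104 and 91.2 CPM in control (log2 fold change −1.48 ± 0.10, adjusted p = 9.03e-06). SKA3, which ties kinetochores to microtubules, had 14.4, 14.7 and 13.4 CPM in fPS 100, against 38.3, 38.9 and 37.9 CPM in control (log2 fold change −1.44 ± 0.09, adjusted p = 5.88e-06). MT2A, a metallothionein that binds zinc, had 716, 755 and 1435 CPM in fPS 100, against 143, 176 and 119.9 CPM in control, with replicate 3 the highest (log2 fold change 2.73 ± 0.25, adjusted p = 2.82e-05; 2.34 without replicate 3). Metallothionein copies are alike, so reads may be shared. IL1RN, the interleukin 1 receptor antagonist, had 43.1, 42.9 and 47.1 CPM in fPS 100, against 18.3, 14.6 and 14.6 CPM in control, with no overlap (log2 fold change 1.49 ± 0.11, adjusted p = 1.06e-05). The sequences are from RefSeq, build GRCh38.p14, 250 bases before to 50 after an annotated start, 5′ to 3′ on the gene's strand. Where the table lists several starts for a gene its first entry was used; for IL1RN that start lies inside the annotated gene, which begins at position 113099360 of chromosome 2. Capitals mark CCAAT (the CCAAT box), TTTGAA (the core of the cell cycle homology region), GGCGGGAA (an E2F site) and TGANTCA (an AP-1 site), each searched on both strands.
CHAF1A, chr19:4402390-4402689, plus strand: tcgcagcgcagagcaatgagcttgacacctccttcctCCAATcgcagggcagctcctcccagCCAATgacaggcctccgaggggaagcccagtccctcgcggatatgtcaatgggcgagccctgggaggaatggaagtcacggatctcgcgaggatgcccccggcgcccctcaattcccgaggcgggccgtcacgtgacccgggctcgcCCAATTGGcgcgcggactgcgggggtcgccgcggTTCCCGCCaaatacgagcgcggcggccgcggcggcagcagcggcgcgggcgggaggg
SKA3, chr13:21176503-21176802, minus strand: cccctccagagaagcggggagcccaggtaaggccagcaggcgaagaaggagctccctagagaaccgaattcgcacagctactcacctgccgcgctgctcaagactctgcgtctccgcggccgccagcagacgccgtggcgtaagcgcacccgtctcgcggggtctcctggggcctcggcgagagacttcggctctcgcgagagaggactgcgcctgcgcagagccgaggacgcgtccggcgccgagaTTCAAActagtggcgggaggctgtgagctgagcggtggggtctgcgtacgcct
MT2A, chr16:56608334-56608633, plus strand: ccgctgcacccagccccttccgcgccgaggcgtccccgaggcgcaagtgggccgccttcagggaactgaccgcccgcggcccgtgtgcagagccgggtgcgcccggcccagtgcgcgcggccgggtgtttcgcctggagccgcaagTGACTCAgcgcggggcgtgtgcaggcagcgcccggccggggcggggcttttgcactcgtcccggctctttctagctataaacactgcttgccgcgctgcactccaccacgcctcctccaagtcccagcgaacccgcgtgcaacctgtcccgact
IL1RN, chr2:113117721-113118020, plus strand: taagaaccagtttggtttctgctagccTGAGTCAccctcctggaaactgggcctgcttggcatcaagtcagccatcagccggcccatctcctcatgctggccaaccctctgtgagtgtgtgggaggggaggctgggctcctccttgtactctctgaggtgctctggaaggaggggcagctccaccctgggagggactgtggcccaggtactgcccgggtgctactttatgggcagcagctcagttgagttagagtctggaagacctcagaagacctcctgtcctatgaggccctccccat
In CHAF1A the capitals are 4 CCAAT boxes and an E2F site, and the boxes that begin at −41 and −38 from the start are on opposite strands and share 2 bases. In SKA3 they are a TTTGAA on the other strand, and in MT2A and IL1RN an AP-1 site that begins at −104 and −223 from the start.

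A promoter was matched for 10112 tested protein-coding genes, of which 1639 rose and 1592 fell, and 315 and 375 did so at least 2-fold. CCAAT was in 30.2% of promoters of genes that rose at least 2-fold and 51.7% of those that fell at least 2-fold, against 36.8% of tested promoters and 35.7% of all 27305 genes in the table. TTTGAA was in 8.57% and 22.9%, against 9.70% tested and 15.4% of all, and GGCGGGAA in 1.90% and 10.4%, against 5.09% and 3.18%. TGANTCA went the other way, in 9.21% of those that rose and 3.73% of those that fell, against 4.69% and 7.76%. CCGGAAGT, an ETS site, was in 1.59% and 4.53%, both below the 8.99% of tested promoters. The sites searched for CREB (TGACGTCA), ATF4 (TGATGNAA) and NF-kB (GGANTTTCC) were in 2.22% and 5.87%, 2.86% and 3.47%, and 2.22% and 1.33% of rises and falls of at least 2-fold, against 3.32%, 1.66% and 1.59% of tested promoters. TGCNCNC, a metal response element, was in 63.8% and 57.6%, against 63.4% of tested promoters. It also occurs in the MT2A promoter above, where it is not in capitals. Of the tested promoters 0.267% had a base shared between 2 of the 4 capitalised motifs, and the median GC content was 66.3% for rises and 62.7% for falls of at least 2-fold. A motif in a promoter is a description and not evidence of binding, 15 motifs were searched, and these shares were not tested.

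Genes of growth factor signalling rose. Of 22 genes of EGF receptors, their ligands and feedback inhibitors 15 rose and 0 fell, with a median of 0.75 log2, against 15.3% called higher over all genes. Among ligands, AREG, amphiregulin, had 36.03, 32.1 and 98.6 CPM in fPS 100, against 12.5, 15.2 and 9.24 CPM in control. Replicate 3 was the highest, and all fPS 100 libraries lay above control (log2 fold change 2.17 ± 0.42, adjusted p = 0.00442; 1.47 without replicate 3). HBEGF, heparin-binding EGF, had 12.8, 14.6 and 53.1 CPM in fPS 100, against 6.69, 6.99 and 4.37 CPM in control (log2 fold change 2.16 ± 0.53, adjusted p = 0.0158; 1.19 without replicate 3; adjusted p = 0.0599 without control replicate 2 and 0.0668 without control replicate 3). The list's other ligands that rose, EREG, TGFA and BTC, lost their call without 1 or more single libraries. Among receptors, ERBB2 had 146, 142 and 150.4 CPM in fPS 100, against 97.5, 94.8 and 91.4 CPM in control, close within each group (log2 fold change 0.63 ± 0.07, adjusted p = 0.000133). EGFR had 140.5, 102 and 148 CPM in fPS 100, against 127, 85.5 and 231 CPM in control, with overlapping groups (log2 fold change −0.19 ± 0.34, adjusted p = 0.714). Among the feedback genes that ERK signalling switches on, DUSP4, a phosphatase of MAP kinases, had a log2 fold change of 1.99 ± 0.21, adjusted p = 6.99e-05, DUSP5 at a log2 fold change of 1.41, DUSP6 at a log2 fold change of 1.32 (0.80 without replicate 3), and the Sprouty-related SPRED1 and SPRY4 at a log2 fold change of 1.02 and 1.35. Without replicate 3, 16 rose and 1 fell, with a median of 0.61.

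Transcription factors of the AP-1, ETS and MAF families rose too: 13 of 29 rose and 0 fell (median 0.37). Without replicate 3 it was 14 and 1, with ETS1 at a log2 fold change of −0.69 (adjusted p = 0.00126). ETV4, an ETS factor downstream of growth factor signals, had 43.2, 37.1 and 42.4 CPM in fPS 100, against 20.9, 16.9 and 16.4 CPM in control (log2 fold change 1.18 ± 0.12, adjusted p = 6.11e-05). JUN had a log2 fold change of 1.35 ± 0.17, adjusted p = 0.000183. FOSL1 was at 45.1, 38.1 and 129.9 CPM in fPS 100, against 38.9, 43.9 and 31.7 CPM in control and did not pass (log2 fold change 0.90 ± 0.44, adjusted p = 0.162); replicate 3 stood far above the other libraries, and without fPS 100 replicate 2 the adjusted p was 0.0409. Of 13 Krüppel-like factors 4 rose and 2 fell. KLF11, of TGF-beta signalling, had 4.56, 4.82 and 7.96 CPM in fPS 100, against 1.78, 1.05 and 1.39 CPM in control (log2 fold change 2.05 ± 0.26, adjusted p = 0.000209). KLF13 had a log2 fold change of 1.17.

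Of 18 integrin and laminin genes, the anchors to the basement membrane, 9 rose and 0 fell (median 0.48; 10 and 0 without replicate 3). ITGA3, which binds laminin, had 736, 654 and 1000.3 CPM in fPS 100, against 384, 361 and 376 CPM in control, with no overlap (log2 fold change 1.09 ± 0.14, adjusted p = 0.000207). ITGB5, ITGB6 and ITGA2 had log2 fold changes of 0.35, 0.61 and 0.71. The integrins ITGB1, ITGB8 and ITGAV rose but lost their call without 1 or more single libraries (adjusted p up to 0.152, 0.135 and 0.0614). Of the laminin chains of the hemidesmosome, LAMA3 rose (log2 fold change 0.99 ± 0.26, adjusted p = 0.0152; 0.61 without replicate 3; adjusted p = 0.0662 without control replicate 2).

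Matrix proteases split by library. Of 26 proteases and inhibitors 8 rose and 1 fell, and without replicate 3 it was 10 and 7. PLAU, urokinase, had 319, 392 and 831 CPM in fPS 100, against 171, 158 and 161 CPM in control, highest in replicate 3 (log2 fold change 1.66 ± 0.29, adjusted p = 0.00179; 1.13 without it). MMP14, a membrane-bound collagenase, had a log2 fold change of 0.50 ± 0.11, adjusted p = 0.00504, and MMP2, a gelatinase, at a log2 fold change of −0.53 ± 0.10, adjusted p = 0.0021. MMP1, interstitial collagenase, had 8.7, 7.32 and 66.5 CPM in fPS 100, against 31.9, 35.5 and 41.2 CPM in control. Replicates 1 and 2 lay below all control libraries and replicate 3 above them, so it did not pass with all libraries (log2 fold change −0.39 ± 0.80, adjusted p = 0.751), and it was at −2.17 (adjusted p = 1.66e-05) without replicate 3. MMP10, stromelysin 2, had 1.12, 1.27 and 27.6 CPM in fPS 100, against 10.7, 10.4 and 17.6 CPM in control, in the same arrangement (log2 fold change −0.36 ± 1.09, adjusted p = 0.834; −3.43, adjusted p = 2.34e-05, without replicate 3). Both were chosen for this after their values were seen.

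Of 41 genes of lysosomal enzymes and membrane proteins 14 rose, PPT1, palmitoyl-protein thioesterase, fell, and 26 did not pass (median 0.15). The rises were 34.1% of the list, against 15.3% of all genes. CTSF, GLB1, SMPD1 and GRN rose but lost their call without 1 or more single libraries. LAMP3, a lysosomal membrane protein, had 16.7, 16.1 and 20.8 CPM in fPS 100, against 9.06, 7.51 and 10.2 CPM in control (log2 fold change 1.0 ± 0.16, adjusted p = 0.000752). MAN2B1 and LAMP2 had log2 fold changes of 0.47 and 0.54. Of 37 autophagy genes 6 rose and 2 fell, near the 15.3% and 14.6% of all genes for the rises and below it for the falls, with ULK2, an initiating kinase, at a log2 fold change of 1.3 ± 0.21, adjusted p = 0.000899. The rises WIPI1, GABARAPL2, NBR1 and TAX1BP1 and the falls CALCOCO2 and ATG4C lost their call without 1 or more single libraries. Of 65 genes named RAB, mostly vesicle GTPases, 17 rose and RAB40C fell, a call that was lost without single libraries (median 0.15), led by RAB43 (log2 fold change 1.19 ± 0.13, adjusted p = 7.37e-05) and RAB3D (log2 fold change 0.83). Of 30 named VPS, for vacuolar sorting, 7 rose and 0 fell. The share of rises was 23.3% for VPS and 26.2% for RAB, against 15.3% of all genes. VPS4A, which takes apart ESCRT filaments, had 94.7, 97.4 and 108 CPM in fPS 100, against 50.9, 46.5 and 42.3 CPM in control, with no overlap (log2 fold change 1.1 ± 0.10, adjusted p = 1.82e-05). VPS54, of the Golgi tethering complex, had a log2 fold change of 1.06 ± 0.11, adjusted p = 7.29e-05. Genes named ARL went both ways: of 23 tested 10 rose and 7 fell (median 0.01). ARL1, an Arf-like GTPase of the Golgi, had 69.7, 69.8 and 68.5 CPM in fPS 100, against 34.8, 31.3 and 33.5 CPM in control (log2 fold change 1.06 ± 0.08, adjusted p = 1.15e-05). Of 31 endocytosis genes 6 rose and 5 fell (19.4% and 16.1%), near the shares of all genes. Of 18 genes of haem and iron handling 7 rose and STEAP3 fell: beside ferritin, these included SLC11A2, an iron importer (log2 fold change 0.49 ± 0.10, adjusted p = 0.00328), and HMOX1, which breaks down haem. HMOX1 had 29.8, 23.1 and 105 CPM in fPS 100, against 16.2, 18.7 and 12.6 CPM in control (log2 fold change 1.74 ± 0.54, adjusted p = 0.045; 0.75 without replicate 3, the library that stands out; adjusted p = 0.102 without control replicate 1, 0.111 without control replicate 2 and 0.135 without control replicate 3).

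Of 221 solute carriers tested 37 rose and 31 fell (16.7% and 14.03%), close to the background. Zinc carriers were looked at after their values were seen: of 7 SLC30A genes, which move zinc out of the cytosol, 2 rose and 1 fell, and of 10 SLC39A genes, which bring zinc in, 1 rose and 4 fell, of which SLC39A1 and SLC39A3 lost their call without single libraries. SLC30A1, the zinc exporter of the plasma membrane, had 24.2, 24.2 and 22.1 CPM in fPS 100, against 6.24, 6.18 and 6.34 CPM in control, nearly constant within groups (log2 fold change 1.91 ± 0.11, adjusted p = 5.88e-06). SLC30A4, another zinc transporter out of the cytosol, had 4.31, 3.3 and 2.53 CPM in fPS 100, against 0.728, 0.525 and 0.882 CPM in control (log2 fold change 2.24 ± 0.27, adjusted p = 0.000137). SLC39A10, a zinc importer, had 27.8, 27.96 and 46.4 CPM in fPS 100, against 80.7, 71.4 and 98.9 CPM in control, with no overlap (log2 fold change −1.3 ± 0.19, adjusted p = 0.000502). SLC1A4, a carrier of neutral amino acids, had a log2 fold change of −0.88 ± 0.08, adjusted p = 2.19e-05, and SLC29A1, a nucleoside carrier, at a log2 fold change of −1.23 ± 0.13, adjusted p = 7.89e-05.

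Other metabolic lists held few called members with all libraries. Of 8 pentose phosphate genes 2 rose, and RPIA, whose groups overlapped, fell (adjusted p = 0.097 without control replicate 1, 0.114 without control replicate 2, 0.0997 without fPS 100 replicate 1 and 0.0964 without fPS 100 replicate 2). PGD, which makes NADPH, rose and had 944, 834 and 948 CPM in fPS 100, against 474, 459 and 420.5 CPM in control (log2 fold change 1.01 ± 0.10, adjusted p = 4.07e-05). Of 25 cholesterol genes 2 rose and 4 fell, of 20 fatty acid synthesis genes 3 and 3, of 18 of fatty acid oxidation 1 and 4, of 22 of glycolysis 1 and 3, and of 18 of the TCA cycle 0 and 2. Without replicate 3 it was 2 and 7 for cholesterol, 5 and 3 for fatty acid synthesis, 1 and 5 for fatty acid oxidation, 1 and 7 for glycolysis and 0 and 7 for the TCA cycle, with 18.9% and 19.0% of all genes called. ENO2, an enolase, had a log2 fold change of 1.03 ± 0.17, adjusted p = 0.00107, and citrate synthase CS at a log2 fold change of −0.52 ± 0.10, adjusted p = 0.00252. In sphingolipid metabolism (6 of 30 up, 3 down) the kinases that make sphingosine 1-phosphate parted. SPHK2 had 12.6, 14.8 and 17.03 CPM in fPS 100, against 51.5, 58.7 and 49.04 CPM in control (log2 fold change −1.84 ± 0.12, adjusted p = 9.03e-06). SPHK1 had 48.95, 58.4 and 134 CPM in fPS 100, against 25.5, 27.4 and 16.7 CPM in control (log2 fold change 1.79 ± 0.36, adjusted p = 0.00535; 1.22 without replicate 3). No library of either overlapped between groups. In the eicosanoid list (5 of 18 up, 4 down) PTGES rose as described, the aldo-keto reductase AKR1C3 had a log2 fold change of 1.55 ± 0.15, adjusted p = 3.59e-05. HPGD, which breaks prostaglandins down, had 3.06, 3.09 and 1.5 CPM in fPS 100, against 4.83, 4.81 and 6.42 CPM in control (log2 fold change −1.07 ± 0.26, adjusted p = 0.00936). Of 11 polyamine genes SAT1, which acetylates spermidine, had a log2 fold change of 1.68 ± 0.42, adjusted p = 0.0176 (0.93 without replicate 3; adjusted p = 0.052 without control replicate 1, 0.0612 without control replicate 2 and 0.0707 without control replicate 3), and SMOX, spermine oxidase, at a log2 fold change of −0.93 ± 0.13, adjusted p = 0.000383.

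Lists of developmental pathways are to be read against the 15.3% and 14.6% of all genes called higher and lower. In the WNT list 10 of 41 rose and 3 fell, with a median of 0.00. The ligand WNT10A had 119.9, 126 and 123 CPM in fPS 100, against 66.9, 59.2 and 63.7 CPM in control (log2 fold change 0.96 ± 0.08, adjusted p = 1.92e-05). WNT7B had a log2 fold change of 1.21. WNT6 had 0.828, 1.44 and 0.594 CPM in fPS 100, against 0.0455, 0.202 and 0.168 CPM in control, which is near the floor of 3 counts in control, so no fold is given. The receptor FZD4 had a log2 fold change of −0.87 ± 0.17, adjusted p = 0.00336. In the TGF-beta and BMP list 7 of 37 rose and 3 fell. The co-receptor TGFBR3 had 2.03, 0.931 and 0.911 CPM in fPS 100, against 0.182, 0.242 and 0.294 CPM in control (log2 fold change 2.4 ± 0.42, adjusted p = 0.00162). Its control values are not far above the floor of 3 counts, 0.118 to 0.137 CPM in control, so the size of this fold is uncertain. The ligand TGFB1 had a log2 fold change of 0.55. In the hedgehog and cilium list 8 of 33 rose and 5 fell. IFT46, of ciliary transport, had 21.7, 21.95 and 15.4 CPM in fPS 100, against 4.55, 4.64 and 4.07 CPM in control (log2 fold change 2.15 ± 0.18, adjusted p = 1.43e-05). GLI1, a hedgehog effector, was at a log2 fold change of −1.73 ± 0.42, adjusted p = 0.00999. Of 42 semaphorin, plexin and ephrin genes, which guide cell contact, 15 rose and 7 fell: PLXNB3 had a log2 fold change of 1.06 ± 0.15, adjusted p = 0.000464, EFNB1 at a log2 fold change of 0.75 and SEMA6C at a log2 fold change of −1.37 ± 0.18, adjusted p = 0.000253. Many of these calls were lost without 1 or more single libraries. Among the rises these were EPHA1, PLXNA3, PLXNB2, SEMA3B, SEMA4B and SEMA4F. Among the falls they were EFNA4, EFNB2, EPHB3, SEMA4D and SEMA5A. Of 28 interleukin and interferon receptors 8 rose and 2 fell. IL1R1, the signalling receptor for interleukin 1, had 5.92, 4.7 and 5.94 CPM in fPS 100, against 1.55, 1.37 and 1.39 CPM in control (log2 fold change 1.94 ± 0.17, adjusted p = 1.97e-05). IL6R was at a log2 fold change of 1.05 ± 0.15, adjusted p = 0.00055. Without replicate 3 it was 13 and 5 in the WNT list, 11 and 3 in the TGF-beta list, 13 and 3 in the hedgehog list, 12 and 6 for semaphorins and 8 and 4 for these receptors. Of 17 clock genes BHLHE40, ARNTL2 (adjusted p = 0.0564 without control replicate 2) and RORA (adjusted p = 0.0854 without control replicate 1, 0.0969 without control replicate 2, 0.112 without fPS 100 replicate 1 and 0.0599 without fPS 100 replicate 2) rose and 0 fell, with BHLHE40, a repressor of the clock, at a log2 fold change of 0.52 ± 0.13, adjusted p = 0.0109 (0.33 without replicate 3).

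**Figure D3:**
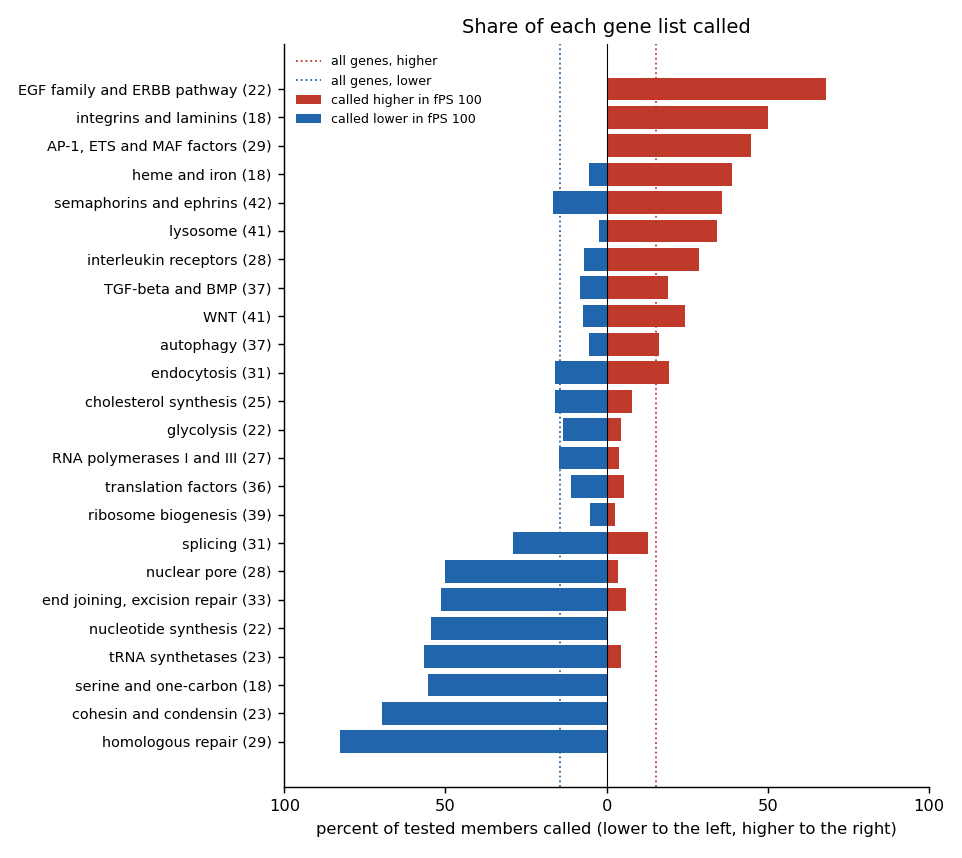
Percent of tested members called higher (red, to the right) and lower (blue, to the left) in fPS 100 for 24 gene lists, with the number tested in brackets; dotted lines mark 15.3% and 14.6%, the shares over all genes. Homologous repair reaches 24 of 29 lower and the EGF family and ERBB pathway 15 of 22 higher, while cholesterol synthesis and glycolysis lie near or inside the lines with all libraries (4 of 25 and 3 of 22 lower, against 7 and 7 without replicate 3).

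Replicate 3 set the call for some lists of growth metabolism. Of 39 ribosome biogenesis genes 1 rose and 2 fell with all libraries, against 1 and 25 without replicate 3, when the median was −0.37 in place of −0.11. By library the list median was −0.38, −0.36 and 0.22 in fPS 100 replicates 1, 2 and 3, against 0.03, 0.07 and −0.07 in control, each relative to the control mean. NCL, nucleolin, had 744, 816 and 1219.5 CPM in fPS 100, against 1161, 1237 and 1058 CPM in control and showed this pattern (log2 fold change −0.31 ± 0.16, adjusted p = 0.167; −0.56 without replicate 3). WDR75, of the small subunit processome, was steady within groups and rose (log2 fold change 0.68 ± 0.08, adjusted p = 0.000126). Of 31 splicing genes 4 rose and 9 fell with all libraries, against 2 and 16 without replicate 3, of 36 translation factors 2 and 4 against 2 and 13, and of 27 RNA polymerase I and III genes 1 and 4 against 1 and 11. Over all genes 15.3% rose and 14.6% fell with all libraries, against 18.9% and 19.0% without replicate 3. Splicing calls also hung on other single libraries. The rises CLK1, CLK2, CLK3 and SRSF5 and the falls PRPF4, SF3A2, SF3B2, SRSF4, TRA2B and U2AF2 each lost theirs without 1 or more of these. Of 13 mitochondrially encoded genes 12 rose without replicate 3; with all libraries 0 passed in edgeR, 0 in DESeq2 and 0 in limma-voom, and 1 had an unadjusted p under 0.05 in edgeR. Some called genes had replicate 3 far from replicates 1 and 2. XDH, xanthine dehydrogenase, had 16.7, 12.7 and 60.5 CPM in fPS 100, against 8.33, 7.67 and 7.56 CPM in control (log2 fold change 1.93 ± 0.54, adjusted p = 0.0281; 0.91 without it; adjusted p = 0.0695 without control replicate 1, 0.105 without control replicate 2 and 0.0917 without control replicate 3). ZC3H12A, an RNase that degrades cytokine mRNA, had 23.4, 30.6 and 102 CPM in fPS 100, against 18.6, 17.1 and 15.8 CPM in control (log2 fold change 1.6 ± 0.50, adjusted p = 0.0449; 0.66 without it; adjusted p = 0.092 without control replicate 1, 0.139 without control replicate 2 and 0.129 without control replicate 3). In these replicate 3 was the highest. SESN3, a sestrin, had 12.2, 11.7 and 4.08 CPM in fPS 100, against 2.55, 2.02 and 3.69 CPM in control (log2 fold change 1.76 ± 0.36, adjusted p = 0.00396; 2.12 without it). TXNIP, an inhibitor of thioredoxin, had 40.8, 48.5 and 15.6 CPM in fPS 100, against 80.4, 97.5 and 98.4 CPM in control (log2 fold change −1.4 ± 0.33, adjusted p = 0.0108; −1.04 without it; adjusted p = 0.0562 without control replicate 2). In both replicate 3 was the lowest.

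**Figure D4:**
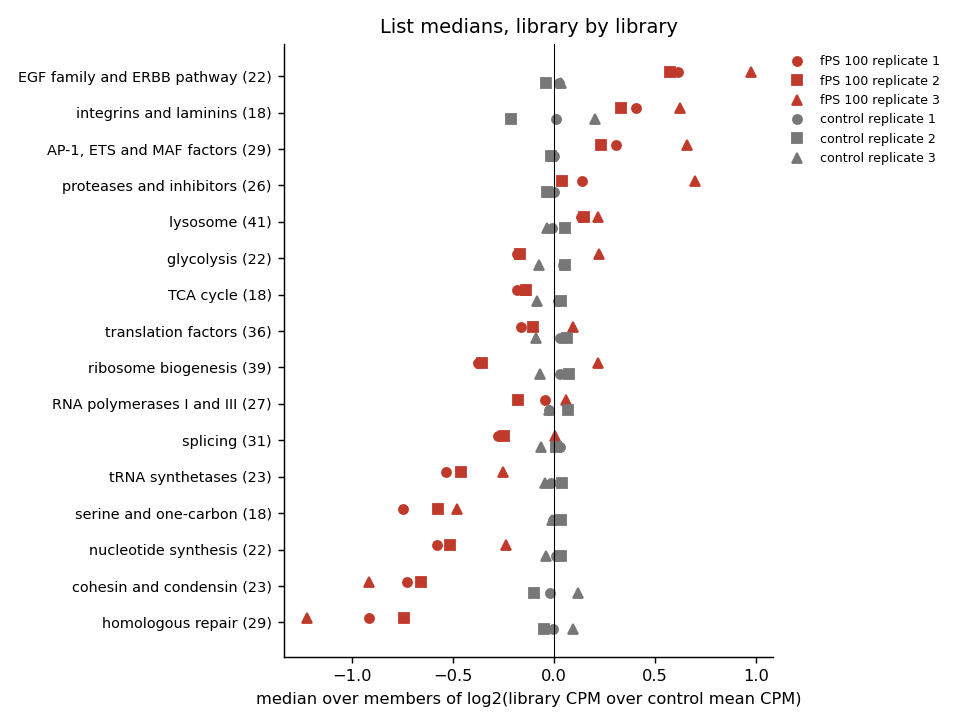
Median over list members of log2 of the CPM in a library over the control mean CPM (horizontal axis), for 16 lists and each fPS 100 (red) and control (grey) library, with circle, square and triangle for replicates 1, 2 and 3. Homologous repair lies at −1.23 to −0.74 in all 3 fPS 100 libraries, and ribosome biogenesis at −0.38 and −0.36 in replicates 1 and 2 but 0.22 in replicate 3.

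Histone genes parted into a group that fell and a few that rose. Of 53 genes named HIST 26 fell and 5 rose, with a median of −1.66 (15 and 8 without replicate 3). Histone mRNAs of dividing cells mostly end in a stem-loop without a poly(A) tail, while HIST1H2BD, HIST1H2BK, HIST1H2AC and HIST2H2BE are known to give polyadenylated forms as well. HIST1H2BD had 30.9, 31.6 and 20.8 CPM in fPS 100, against 6.83, 6.66 and 7.43 CPM in control, far apart (log2 fold change 1.99 ± 0.17, adjusted p = 1.82e-05). HIST2H2BE had a log2 fold change of 1.68 ± 0.18, adjusted p = 6.05e-05, and HIST1H2AC, HIST1H2BK and HIST1H3E had log2 fold changes of 0.98, 0.71 and 2.2. The falls included the linker histones HIST1H1B and HIST1H1E, the second at 1.12, 1.61 and 0.594 CPM in fPS 100, against 2.46, 5.69 and 10.2 CPM in control (log2 fold change −2.48 ± 0.65, adjusted p = 0.0186; adjusted p = 0.06 without control replicate 2, 0.0572 without control replicate 3, 0.0809 without fPS 100 replicate 1 and 0.0746 without fPS 100 replicate 3). HIST1H2AD had 0 counts in all fPS 100 libraries and 0.137, 0.0808 and 0.840 CPM in control, which is too low for a fold. The counts of near-identical histone copies are uncertain. Small nuclear RNAs, which also lack a poly(A) tail, moved with them: 7 of 12 fell and 0 rose, and 9 of 30 small nucleolar RNAs fell and 0 rose. These calls were fragile: RNU2-1, RNU5E-1 and SNORA73A each lost theirs in 5 of the 6 fits without 1 library (adjusted p up to 0.109, 0.113 and 0.115). Summed, the 12 small nuclear RNAs had 72.2, 71.9 and 90.6 CPM in fPS 100, against 134, 266 and 579.8 CPM in control, and the 26 falling histone genes 7.83, 11.4 and 6.97 CPM in fPS 100, against 21.7, 38.5 and 65.1 CPM in control. Both sums were lowest in control replicate 1 and highest in control replicate 3. The libraries were made from poly(A)-selected RNA, and how far carry-over of RNA without a tail bears on these falls was not tested. The 5 rising histone genes summed to 158, 151 and 121 CPM in fPS 100 and 68.7, 70.4 and 66.5 CPM in control, with no such order.

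**Figure D5:**
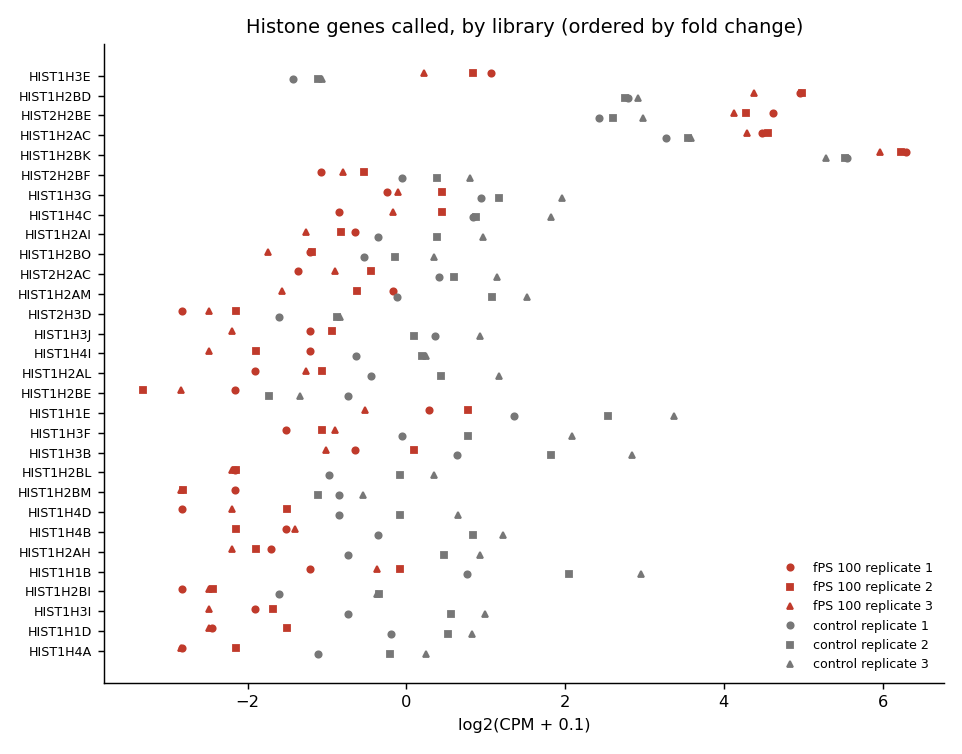
Level as log2(CPM + 0.1) of the 30 histone genes called and counted in both groups, from the largest rise (top) to the largest fall, with fPS 100 libraries in red and control libraries in grey, and circle, square and triangle for replicates 1, 2 and 3. The 5 genes at the top are higher in all fPS 100 libraries, and most genes below them are spread widely over the control libraries.

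Zinc finger genes fell less often than genes at large. Among the 62 symbol stems with at least 20 genes tested, the largest, ZNF, had 81 of 415 higher and 28 lower, with a median of 0.17. These shares were 19.5% and 6.75%, against 15.3% and 14.6% of all genes. Without replicate 3 the counts were 113 and 35, with 18.9% and 19.0% of all genes called. ZNF619 had 3.48, 3.3 and 1.7 CPM in fPS 100, against 0.455, 0.485 and 0.420 CPM in control (log2 fold change 2.62 ± 0.31, adjusted p = 0.000129), and ZNF496 had a log2 fold change of 0.99 ± 0.10, adjusted p = 4.76e-05. ZNF143, which activates small nuclear RNA genes and many housekeeping promoters, was among the 28 that fell, at 16.3, 15.6 and 20.1 CPM in fPS 100, against 55.3, 50.6 and 66.1 CPM in control, with no overlap (log2 fold change −1.73 ± 0.13, adjusted p = 1.06e-05). Of 42 TRIM genes 13 rose (31.0%, against 15.3% of all genes) and TRIM56 and TRIM59 fell. TRIM13, of protein disposal at the endoplasmic reticulum, was at a log2 fold change of 0.70 ± 0.10, adjusted p = 0.000368, and TRIM56, of innate signalling, at a log2 fold change of −0.72 ± 0.10, adjusted p = 0.000329. Of 34 CEP genes of the centrosome 12 fell and 2 rose (35.3% lower, against 14.6% of all genes, median −0.33), led by CEP55, of abscission (log2 fold change −1.38 ± 0.11, adjusted p = 1.17e-05). Of 23 KRT genes 2 rose and 5 fell, against 2 and 8 without replicate 3, when KRT14 and KRT6A had log2 fold changes of −0.96 and −0.72 (adjusted p = 0.000536 and 0.000169). KRT5, the basal keratin, had 1425, 1442 and 1277 CPM in fPS 100, against 2200.4, 1951 and 2182 CPM in control, with no overlap (log2 fold change −0.61 ± 0.10, adjusted p = 0.00117). KRT17, a keratin of wounded epidermis, had 279, 288 and 637 CPM in fPS 100, against 205, 199.8 and 169 CPM in control, highest in replicate 3 (log2 fold change 1.07 ± 0.27, adjusted p = 0.0132; 0.57 without it; adjusted p = 0.0581 without control replicate 2 and 0.0642 without control replicate 3). KRT15, another basal keratin, had 781, 864 and 386 CPM in fPS 100, against 434, 366 and 385 CPM in control; its replicate 3 lay within the control range (log2 fold change 0.78 ± 0.23, adjusted p = 0.025; 1.06 without it; adjusted p = 0.0508 without control replicate 1, 0.101 without control replicate 2, 0.0799 without control replicate 3, 0.0883 without fPS 100 replicate 1 and 0.108 without fPS 100 replicate 2). The 77 RPS and 100 RPL genes and pseudogenes had 2 and 3 rises and 1 and 4 falls, well under the background.

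By kind of gene, 2054 of 12308 protein-coding genes rose and 1906 fell (16.7% and 15.5%), 93 and 111 of 963 long noncoding RNAs (9.66% and 11.5%) and 37 and 47 of 627 pseudogenes (5.90% and 7.50%). The median standard error was 0.13 log2 for protein-coding genes and 0.30 for both other kinds. On the nuclear chromosomes the share called higher was between 12.01% on X and 18.4% on chromosome 8, and the share called lower between 8.89% on chromosome 21 and 19.5% on chromosome 12. With genes cut into 5 equal bins by genomic span, the median log2 fold change was −0.02 in the shortest and 0.06 in the longest bin, and −0.08 and 0.08 without replicate 3.

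At the lower concentration several of these genes stood between the groups, with the same control libraries in both comparisons, so the values are only set side by side. The log2 fold change over control was 2.81 in fPS 100 and 1.76 in fPS 25 for MMP15, −3.15 and −2.43 for SYP, −2.47 and −1.96 for NTRK2, and −2.16 and −1.86 for DISP2. It was 2.15 and 1.56 for IFT46, 2.05 and 1.5 for KLF11, 1.06 and 0.81 for ARL1, and −1.84 and −1.03 for SPHK2. The fPS 25 values of these 8 genes had adjusted p from 0.000975 to 0.0103. They were picked as genes that stood between the groups, so their order is no further result. Some genes named above did not: RTEL1-TNFRSF6B had −2.52 in fPS 100 and −3.63 in fPS 25 (adjusted p = 0.000975). RNU2-1, HIST1H1E and SNORA73A had −2.52, −2.48 and −2.15 in fPS 100. In fPS 25 they had 0.58, 0.40 and 0.52 (adjusted p = 0.680, 0.738 and 0.641). Other genes were near control at the lower concentration: IGFL2-AS1 at 0.25 (adjusted p = 0.148), SLC30A1 at 0.19 (0.376), ITGA3 at 0.21 (0.429), PSAT1 at −0.09 (0.595) and DDN at 0.04 (0.903), all from edgeR's quasi-likelihood test. A p above the threshold does not show that these genes did not differ.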

How the data were processed

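RNA was taken from HaCaT cells with Direct-zol, poly(A)-selected and made into libraries with NEBNext kits, per the labels' protocols. The submitters' processing notes name bcl2fastq and the build GRCh38.p14; of the aligner, counter, annotation and strand the sources used here give nothing. The authors deposited whole-number read counts per gene, and log2 values of the same table of unstated scaling, which served only as an alternative. Rows of the same symbol were summed (52402 symbols) and RNA28S5, RNA18S5, RNA45S5 and RNA5-8S5 left out. Of total counts, 6.06% to 8.48% in fPS 100 and 0% in the other libraries were in these genes. Genes were kept by edgeR's filterByExpr (10 counts, total 15), leaving 14654.

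edgeR 4.0.16 (R 4.3.3) fitted a robust quasi-likelihood model with TMM scaling over all 9 libraries, 3 groups and 6 residual degrees of freedom, with a biological coefficient of variation of 13.7%. Benjamini-Hochberg adjustment ran over all genes tested and called those under 0.05. CPM used TMM-scaled library sizes, and errors of log2 fold changes are standard errors. A count of 3, taken as the floor of detection, was 0.112 to 0.183 CPM, and this covers counting error only. On simulated counts for fPS 100 against control with 200 genes changed 2-fold among 14341, the procedure recovered 84.5%, and 5.06% of its calls were false. The changed genes were drawn from those at 1 CPM or more in control. No simulated library departed as fPS 100 replicate 3 did, and far fewer genes changed than were called, so these rates need not hold for the data. Alternatives used limma 3.58.1 and DESeq2 1.42.0.

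The gene lists and the comparison were chosen with earlier results of these data known. Genes were named by rule: the 15 largest called rises and falls without overlap at 5 CPM or more, the 10 smallest adjusted p each way at 1 CPM or more, the 8 largest differences in mean CPM each way, up to 4 members of a list or symbol family by adjusted p, genes at 0 throughout a group, the 6 most abundant steady genes and the 8 called genes each way in which fPS 100 replicate 3 departed most. Some of these are passed over, and other members named, such as those that did not pass and the zinc transporters, were chosen after their values were seen. Promoters and gene kinds came from RefSeq tables of GRCh38.p14, where 13254 tested symbols matched by symbol and 721 by synonym. Some genes that the rule or the lists hold are not reported here.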

Additional observations from a re-analysis of the deposited data

Results flagged for a closer look

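The 4 ribosomal RNA genes, which enter no comparison, took 6.06%, 8.27% and 8.48% of counts in fPS 100 replicates 1, 2 and 3, and 0% in every control library. They were singled out as a signal in data outside the main measurement that was above the control level. With these genes kept in the fit, 2225 genes were called higher in fPS 100 and 2168 lower, against 2245 and 2141 without them. LOC100507412, too, had counts in fPS 100 libraries and 0 in control. Whether all libraries were handled alike before deposit is not stated, so a difference in the authors' processing and one in the RNA cannot be told apart, and 0% in control need not mean that the RNA was absent.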

How the results depend on the processing

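The number of genes called higher and lower in fPS 100 (2245 and 2141) stayed within 1.5 times under every alternative run. It was 2231 and 2147 with DESeq2's size factors in edgeR, 2282 and 2069 with upper-quartile scaling, 2287 and 2261 with no filter on low counts, 2350 and 2262 in DESeq2, 2195 and 2149 in limma-voom, and 1560 and 1610 with only the 6 compared libraries. On the authors' deposited log2 values it was 2348 and 1926. Leaving out 1 library at a time gave 3245 to 5643 calls. The replicate numbers gave no sign of pairing, since no correlation of same-numbered libraries was above 0.0313. Between differently numbered libraries it ran from −0.30 to 0.27, so with 3 libraries a group this cannot exclude pairing. With a replicate block 1764 and 1713 genes were called, 3463 of the main calls among them. Of 494 genes followed by name, 467 were called, 397 of them under every setting that tested them, and 0 reversed. Of the 70 that lost a call somewhere, TXNIP, HMOX1, HBEGF, XDH and ZC3H12A are among those named above. The 494 were chosen mainly for small adjusted p or large changes in these same data, which favours stable calls. Of all 4386 calls, 3159 were also made with only the 6 compared libraries and 3164 without control replicate 1. The list members counted above as called also include genes that lost their call without 1 library, such as ITGB1 and NUP50. The median log2 fold change of all genes ran from −0.01 to 0.02. Depth limits genes under about 1 CPM, where 1863 were tested with a median standard error of 0.41.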
